A study of Mus musculus with 6 samples.

Results

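Mouse mast cells were compared here for 36 genes that carry a cell through mitosis, out of 29590 genes on the array. The 36 genes were listed by their function in mitosis, with earlier results of these data known, and fall into 8 roles: mitotic cyclins and kinases, the chromosomal passenger complex, the spindle checkpoint, cofactors of the anaphase promoting complex, kinetochore and centromere, spindle motors and microtubule binders, central spindle and cytokinesis, and the mitotic chromosome. All 36 were on the array, with 55 probes, and the brightest probe of each gene was well above background on all 6 arrays. RNA of bone marrow-derived mast cells (BMMCs, mast cells grown from mouse marrow with interleukin-3 at 10 ng/ml) was hybridised to 6 single-colour arrays, 1 for each of 6 groups, and each RNA was a pool of 3 samples. The groups were cells labelled Pla2g3-/- in coculture, Pla2g3+/+ cells in coculture, cells labelled Pla2g3-/- alone, Pla2g3+/+ cells alone, WT cells on Lpar1-/- fibroblasts and WT cells on Lpar1+/+ fibroblasts. The 4 cocultures ran for 4 days on Swiss 3T3, an established mouse fibroblast line, with stem cell factor at 100 ng/ml. Whether the cells alone received stem cell factor, and whether the arrayed mast cells were recovered as nonadherent cells or with beads against CD117, is unknown here. The Lpar1-/- fibroblasts were made with CRISPR/Cas9 and grown from single cells, and how many clones were used is not given. The Pla2g3 product is a phospholipase A2 that cells secrete, that of Lpar1 is a lysophosphatidic acid receptor, and the design asks how both bear on the maturation of mast cells on fibroblasts.

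Mitosis is run by cyclin-dependent kinase 1 with its cyclins, which switch on the kinases and motors that build the spindle. Kinetochores tie chromosomes to spindle fibres, a checkpoint holds the anaphase promoting complex back until all are attached, and the central spindle then guides the cut between the daughter cells. Most of these genes are transcribed together late in the cell cycle, under a promoter element called the CHR (cell cycle genes homology region) that is bound by the MuvB core, with B-Myb (Mybl2) and FoxM1 in dividing cells and with p130 (Rbl2) and E2F4 as the repressive DREAM complex in resting cells. Mast cell precursors grown from marrow divide in culture, whereas mature connective tissue mast cells seldom do.

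The promoters show what these genes share in sequence. RefSeq windows (GRCm38.p6) of 300 bases, 250 before to 50 after the start, were at hand for 31 of the 36 genes, and Ccna2, Aurkb, Incenp, Tpx2 and Kif20a had none. The 7 below were picked by gene name, and each holds a CHR and the CCAAT box that commonly accompanies it. Each runs 5′ to 3′ on the strand of its gene, from 100 bases before the start to 30 after it, and capitals mark the CHR (TTTGAA or TTTAAA) and the CCAAT box (CCAAT, or ATTGG on the other strand). The windows are chr13:100786457-100786586 (minus strand) for Ccnb1, chr9:70421525-70421654 (minus strand) for Ccnb2, chr4:118437314-118437443 (minus strand) for Cdc20, chr7:122159335-122159464 (plus strand) for Plk1, chr2:172370541-172370670 (minus strand) for Aurka, chr10:69352883-69353012 (minus strand) for Cdk1 and chr3:135212463-135212592 (plus strand) for Cenpe.
Ccnb1: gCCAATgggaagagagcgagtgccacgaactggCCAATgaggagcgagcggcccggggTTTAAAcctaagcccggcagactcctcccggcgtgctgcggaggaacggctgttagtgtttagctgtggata
Ccnb2: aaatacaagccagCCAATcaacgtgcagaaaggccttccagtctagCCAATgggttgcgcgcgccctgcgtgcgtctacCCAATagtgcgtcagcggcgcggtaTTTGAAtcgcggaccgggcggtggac
Cdc20: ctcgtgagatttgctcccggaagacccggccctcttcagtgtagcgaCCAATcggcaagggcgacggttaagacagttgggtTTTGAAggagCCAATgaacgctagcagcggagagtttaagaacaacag
Plk1: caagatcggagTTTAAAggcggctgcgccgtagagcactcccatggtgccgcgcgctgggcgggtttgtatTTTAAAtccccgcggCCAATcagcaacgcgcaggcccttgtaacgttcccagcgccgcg
Aurka: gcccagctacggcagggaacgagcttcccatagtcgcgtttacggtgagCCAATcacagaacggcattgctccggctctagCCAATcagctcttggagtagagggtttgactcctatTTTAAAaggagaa
Cdk1: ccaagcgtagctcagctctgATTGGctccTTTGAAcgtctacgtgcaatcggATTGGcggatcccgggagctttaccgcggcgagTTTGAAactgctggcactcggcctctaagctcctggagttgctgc
Cenpe: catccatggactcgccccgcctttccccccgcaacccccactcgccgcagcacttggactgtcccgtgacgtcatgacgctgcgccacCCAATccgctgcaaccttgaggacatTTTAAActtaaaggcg

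A CHR, searched on both strands, stood in 27 of the 31 windows (87.1%), against 27.8% of the windows of 27025 genes. Within 50 bases of the start, a limit chosen after the positions were seen, it stood in 24 of 31 (77.4%), against 8.24% of all genes. A CCAAT box stood in 24 of 31 (77.4%), against 37.9% of all genes. It was also common in windows of 56 other mitosis genes (69.6%) and of 31 DNA replication genes (61.3%). In 8 of 31 windows (25.8%, against 1.26% of all genes), 2 CCAAT boxes of 1 orientation began 30 to 35 bases apart, a spacing also chosen after the positions were seen. An E2F site (TTTCGCG, the variant TTTGGCG or the variant TTTCCCG, on either strand) stood in 4 of 31 (12.9%), against 5.72% of all genes and 51.6% of the windows of 31 DNA replication genes. The Ccnb2 window above shows the dense case, with 3 CCAAT boxes upstream of a CHR that lies just past the start. A match is a run of letters and not a measured binding site.

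**Figure D1:**
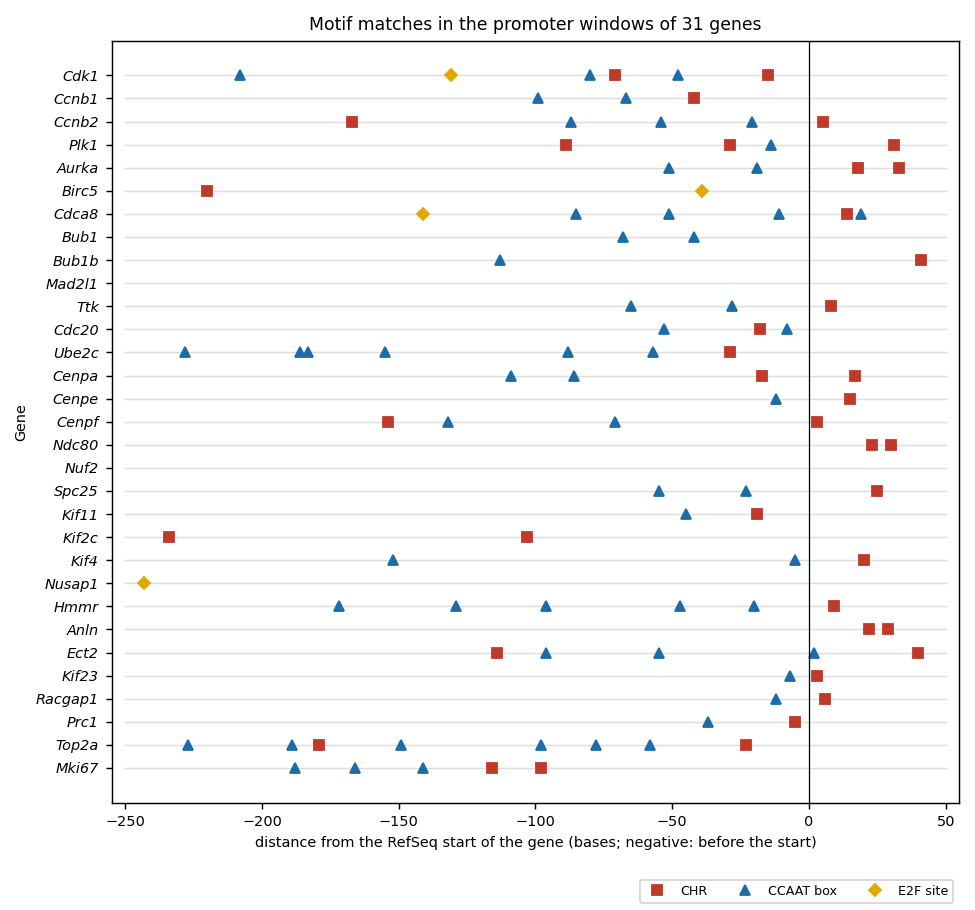
Positions of CHR, CCAAT box and E2F matches in the promoter windows of 31 mitosis and spindle genes, 1 line per gene, in bases from the RefSeq start (horizontal axis). The CHR matches cluster around the start, within 50 bases of it in 24 of 31 windows, and CCAAT boxes lie mostly upstream of them.

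Levels below are log2 of the spot intensity over the 75th percentile of its array, so that 0 is the signal at that percentile, and a difference of 1 is 2-fold. Levels of different genes come from different probes and are not compared with each other. The 75th percentile was an intensity of 1230 to 1520, with 70.7% to 80.4% of spots well above background. With 1 array per group no difference has a replicate check, and 2-fold is the size at which a gene is called higher or lower. The error that the scanner software gives for a spot comes to 0.20 for the difference of a typical member. It rests mostly on a multiplicative error of 10% that the software used on every array, and is not a spread measured between spots. The 2 wild-type cocultures, on the same slide, show how far arrays of the same kind lie apart: the standard deviation of their difference was 0.25 over 21907 genes, and 95% lay within 0.54. The arrays of cells alone lay on another slide than the cocultures, so that slide and coculture cannot be told apart, and the same holds for stem cell factor if cells alone went without it.

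The labels were checked first. Pla2g3 read -1.84 in the coculture labelled Pla2g3-/- and -7.31 in the Pla2g3+/+ coculture, and 0.51 in the cells labelled Pla2g3-/- alone and -6.31 in Pla2g3+/+ cells alone. The signal thus ran against the label, and since the deleted part is not given, a probe outside it would check nothing. On Lpar1-/- and Lpar1+/+ fibroblasts it read -4.85 and -6.58. The arrays are therefore called by their label throughout. Lpar1 read -3.89 on Lpar1-/- and -4.14 on Lpar1+/+ fibroblasts, and how much of this signal came from fibroblasts is unknown, so that label was not checked by it. The mast cell genes Kit, Fcer1a and Cpa3, which define the cell type, were bright on every array (6.45 to 7.29). Of 20 fibroblast marker genes, 18 were well above background in the coculture labelled Pla2g3-/-, 18 in the Pla2g3+/+ coculture, 19 on Lpar1-/- and 18 on Lpar1+/+ fibroblasts, against 11 in each culture alone. Lum lay near background throughout. Fibroblast RNA was thus present in the cocultures, and fibroblasts divide too, so the cell from which a mitotic transcript came is not settled by these arrays. In such bulk RNA, fewer dividing cells and less RNA per cell cannot be told apart.

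The members moved together, and in opposite directions in the 2 kinds of coculture. In the coculture labelled Pla2g3-/- 35 of the 36 members were at least 2-fold lower than in the Pla2g3+/+ coculture and 0 higher (background 10.4% lower and 9.11% higher of 22491 genes), with a median difference of -2.12 against -0.08 over all genes. On Lpar1-/- fibroblasts 34 of 36 were at least 2-fold lower than on Lpar1+/+ fibroblasts and 0 higher (background 8.85% lower and 11.3% higher of 24531 genes), with a median of -2.30 against -0.05. In Pla2g3+/+ cells 31 of 36 were at least 2-fold higher in coculture than alone and 0 lower (background 13% higher and 7.52% lower of 22606 genes), with a median of 1.23 against 0.13. Under the Pla2g3-/- label 18 of 36 were at least 2-fold lower in coculture than alone and 0 higher (background 7.28% lower and 11.4% higher of 22337 genes), with a median of -0.99 against 0.12. Between the cells alone, 0 of 36 passed 2-fold in either direction (background 0.414% higher and 1.57% lower of 21726 genes), and the median was 0.19 against 0.00. The pair of wild-type cocultures also had 0 of 36 past 2-fold (background 0.792% higher and 0.167% lower of 23996 genes), with differences from -0.39 to 0.16.

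**Figure D2:**
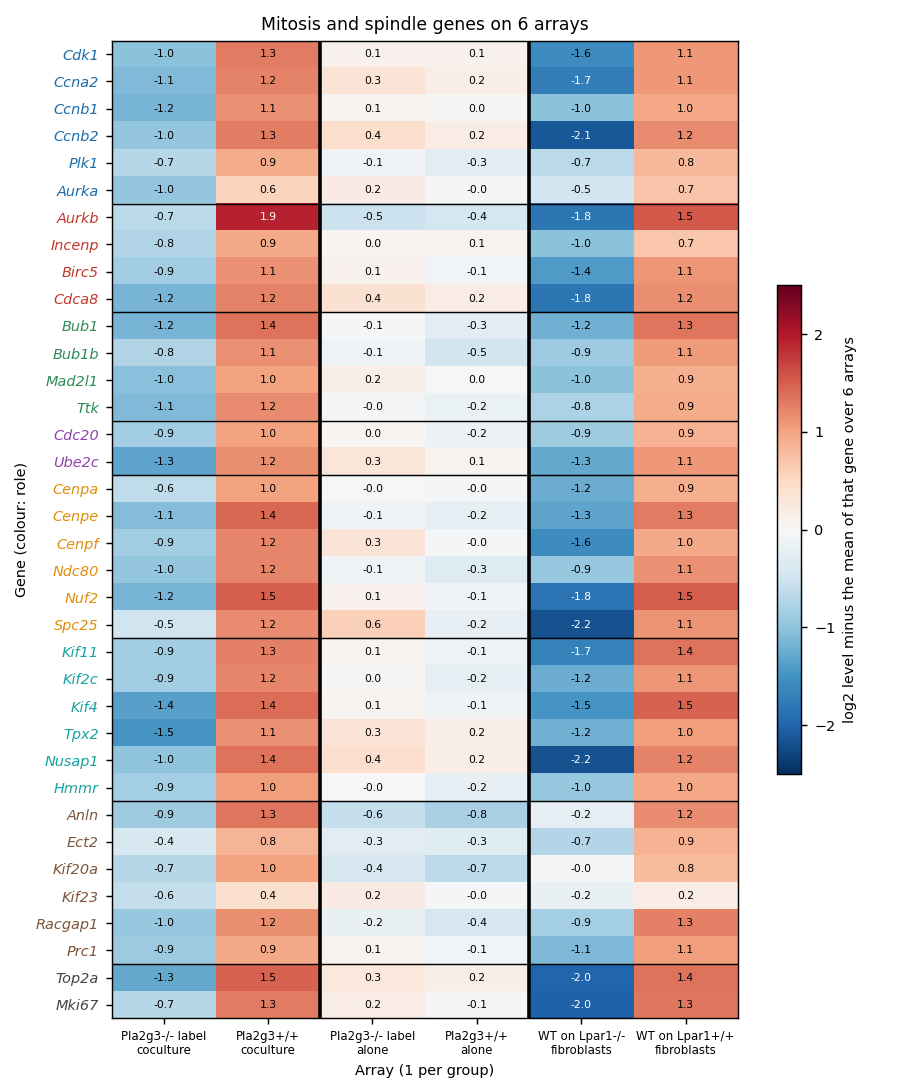
Level of each of the 36 genes on the 6 arrays, as log2 minus the mean of that gene over the arrays (colour scale and printed values), with genes grouped by role and labelled in the colour of the role. The wild-type cocultures (the last column and the one right of the leftmost) are the highest for 35 genes, and the coculture labelled Pla2g3-/- and the Lpar1-/- coculture (the leftmost column and the one left of the last) are the lowest for 34.

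The order of the arrays was nearly the same for every member. In 33 of 36, both wild-type cocultures lay above both cultures alone, which lay above the coculture labelled Pla2g3-/- and the Lpar1-/- coculture, an order found in 8.75% of the 19701 genes well above background on all arrays. The exceptions were Anln, Kif20a and Kif23. The pair of wild-type cocultures was highest in 35 members (25.3% of genes). The Lpar1-/- coculture was the lowest array in 24 members (21.8% of genes) and the coculture labelled Pla2g3-/- in 12 (12.7% of genes). The wild-type cocultures differed from each other by less than 2-fold in every member, and so did the cultures alone. The Lpar1-/- coculture lay at least 2-fold below the coculture labelled Pla2g3-/- in 5 members, Spc25 (-1.67), Mki67 (-1.30), Nusap1 (-1.17), Ccnb2 (-1.14) and Aurkb (-1.13), and within 2-fold of it in the others. Aurkb was dim there, with an intensity of 7.34 in the Lpar1-/- coculture and 13.7 in the coculture labelled Pla2g3-/-.

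**Figure D3:**
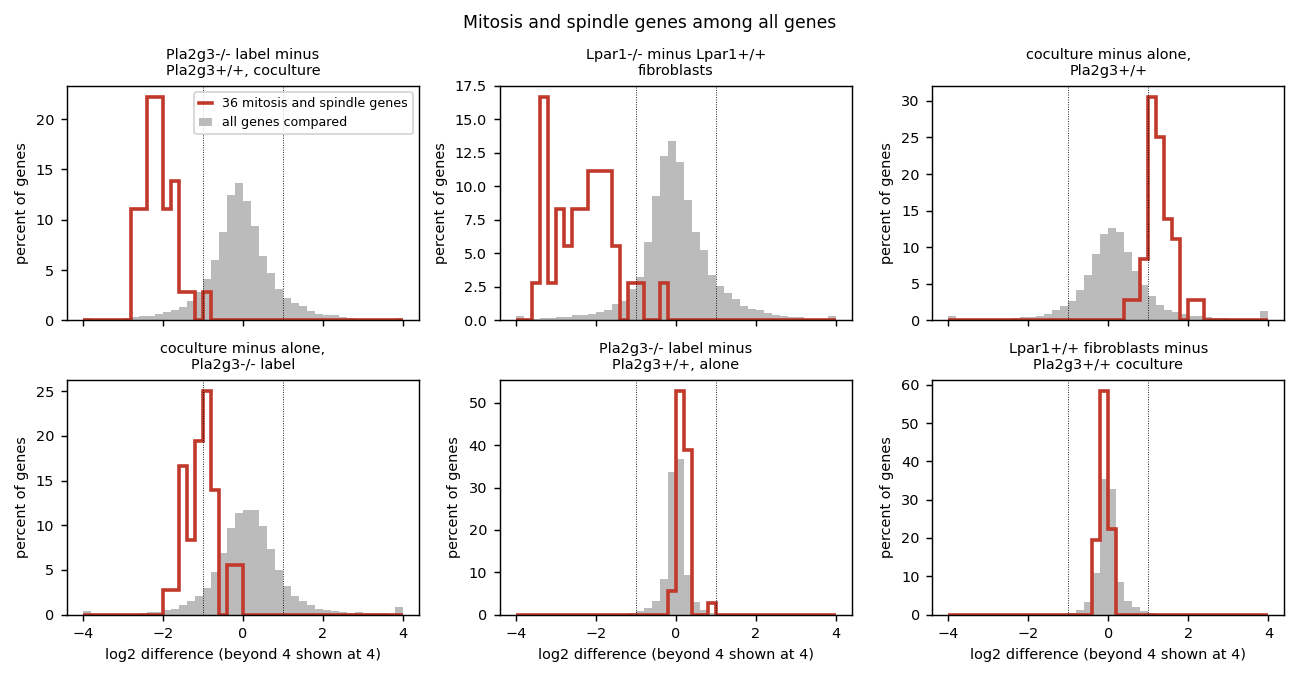
Percent of genes (vertical axis) by log2 difference (horizontal axis) for 6 pairs of arrays, for all genes compared (grey) and for the 36 mitosis and spindle genes (red line), with dotted lines at 2-fold. The members lie far to the left in the first 2 panels (medians -2.12 and -2.30) and to the right in the third (median 1.23), and they sit within 2-fold in the last 2.

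The mitotic cyclins and kinases were lower by a median of 2.28 in the coculture labelled Pla2g3-/- and by 2.32 on Lpar1-/- fibroblasts. Cdk1 read -0.23 in the coculture labelled Pla2g3-/- and 2.08 in the Pla2g3+/+ coculture, 0.90 in cells labelled Pla2g3-/- alone and 0.89 in Pla2g3+/+ cells alone, and -0.78 on Lpar1-/- against 1.88 on Lpar1+/+ fibroblasts. Cdk1 (probe on chromosome 10, 68801072 to 68801131, mm9) is the kinase that drives entry into mitosis, and it was 4.97-fold lower under the Pla2g3-/- label than in the Pla2g3+/+ coculture and 6.33-fold lower on Lpar1-/- than on Lpar1+/+ fibroblasts. The level of Ccnb1 was 0.43 under the Pla2g3-/- label and 2.73 under Pla2g3+/+ in coculture, 1.67 and 1.62 for those labels alone, and 0.57 on Lpar1-/- against 2.56 on Lpar1+/+ fibroblasts. For Ccnb2, the Pla2g3-/- and Pla2g3+/+ labels gave 1.65 and 3.90 in coculture and 3.06 and 2.81 alone, and Lpar1-/- and Lpar1+/+ fibroblasts gave 0.50 and 3.80. Both are B-type cyclins, the partners of Cdk1, and they parted on Lpar1-/- fibroblasts, where Ccnb2 was 9.81-fold lower and Ccnb1 3.97-fold lower. Ccna2 read 0.64 in the coculture labelled Pla2g3-/- and 2.99 in the Pla2g3+/+ coculture, 2.09 in cells labelled Pla2g3-/- alone and 1.90 in Pla2g3+/+ cells alone, and 0.01 on Lpar1-/- against 2.82 on Lpar1+/+ fibroblasts. Cyclin A2 acts in S phase and at the entry into mitosis, and it was 5.09-fold lower under the Pla2g3-/- label in coculture. The level of Plk1 was 0.94 under the Pla2g3-/- label and 2.58 under Pla2g3+/+ in coculture, 1.57 and 1.36 for those labels alone, and 0.97 on Lpar1-/- against 2.47 on Lpar1+/+ fibroblasts. For Aurka, the Pla2g3-/- and Pla2g3+/+ labels gave 0.13 and 1.65 in coculture and 1.31 and 1.04 alone, and Lpar1-/- and Lpar1+/+ fibroblasts gave 0.62 and 1.81. Plk1 matures centrosomes and Aurka builds the spindle poles, and they had the smallest falls of this role, at 3.11-fold and 2.86-fold under the Pla2g3-/- label in coculture and 2.82-fold and 2.28-fold on Lpar1-/- fibroblasts. Aurka was also 1 of the 5 members that stayed within 2-fold between Pla2g3+/+ coculture and Pla2g3+/+ cells alone (0.60).

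In the chromosomal passenger complex, which corrects wrong attachments at the centromere and then moves to the central spindle, all 4 members were lower in both comparisons. Aurkb read -6.50 in the coculture labelled Pla2g3-/- and -3.91 in the Pla2g3+/+ coculture, -6.38 in cells labelled Pla2g3-/- alone and -6.28 in Pla2g3+/+ cells alone, and -7.63 on Lpar1-/- against -4.30 on Lpar1+/+ fibroblasts. Aurkb, its kinase, was dim, with an intensity under 50 on some arrays, and was 6.03-fold lower under the Pla2g3-/- label than in the Pla2g3+/+ coculture. Its coculture difference was 2.37 in Pla2g3+/+ cells and -0.12 under the Pla2g3-/- label. At this dimness the values depended on the background correction: with normexp, a model that estimates the background, Aurkb differed by 0.05 and 0.96 between coculture and cells alone under the Pla2g3-/- and Pla2g3+/+ labels, and by -0.91 between these labels in coculture, all within 2-fold. The level of Birc5 was 2.79 under the Pla2g3-/- label and 4.82 under Pla2g3+/+ in coculture, 3.77 and 3.59 for those labels alone, and 2.26 on Lpar1-/- against 4.78 on Lpar1+/+ fibroblasts. For Incenp, the Pla2g3-/- and Pla2g3+/+ labels gave 2.43 and 4.14 in coculture and 3.24 and 3.28 alone, and Lpar1-/- and Lpar1+/+ fibroblasts gave 2.17 and 3.89. Birc5 is survivin and Incenp the scaffold of the complex. Incenp was 3.27-fold and 3.31-fold lower in the label and the fibroblast comparison, a smaller fall than that of Birc5 (4.08-fold and 5.73-fold). Cdca8 read 1.18 in the coculture labelled Pla2g3-/- and 3.57 in the Pla2g3+/+ coculture, 2.71 in cells labelled Pla2g3-/- alone and 2.53 in Pla2g3+/+ cells alone, and 0.53 on Lpar1-/- against 3.50 on Lpar1+/+ fibroblasts. Cdca8, or borealin, was 7.84-fold lower on Lpar1-/- fibroblasts.

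The spindle checkpoint genes were lower by medians of 2.17 under the Pla2g3-/- label in coculture and 1.96 on Lpar1-/- fibroblasts. The level of Bub1 was -2.30 under the Pla2g3-/- label and 0.22 under Pla2g3+/+ in coculture, -1.20 and -1.43 for those labels alone, and -2.35 on Lpar1-/- against 0.21 on Lpar1+/+ fibroblasts. Bub1 (chromosome 2, 127626988 to 127627047, mm9), a checkpoint kinase at the kinetochore, was printed in 10 spots on every array. The standard deviation over those 10 spots was 0.06 to 0.07, against differences of -2.52 and -2.55, so the spread between spots is small beside them, though it says nothing of the spread between cultures. For Bub1b, the Pla2g3-/- and Pla2g3+/+ labels gave -1.65 and 0.26 in coculture and -0.97 and -1.35 alone, and Lpar1-/- and Lpar1+/+ fibroblasts gave -1.80 and 0.19. Mad2l1 read 0.84 in the coculture labelled Pla2g3-/- and 2.88 in the Pla2g3+/+ coculture, 2.05 in cells labelled Pla2g3-/- alone and 1.90 in Pla2g3+/+ cells alone, and 0.85 on Lpar1-/- against 2.79 on Lpar1+/+ fibroblasts. Bub1b (BubR1) and Mad2l1 (Mad2) are parts of the complex that holds Cdc20 back. The level of Ttk was -5.16 under the Pla2g3-/- label and -2.86 under Pla2g3+/+ in coculture, -4.09 and -4.22 for those labels alone, and -4.84 on Lpar1-/- against -3.13 on Lpar1+/+ fibroblasts. Ttk, the Mps1 kinase at the head of the checkpoint, had an intensity under 50 on 1 array, and its fall was larger under the Pla2g3-/- label (4.90-fold) than on Lpar1-/- fibroblasts (3.28-fold). With normexp these differences were -1.24 and -1.01 on the log2 scale.

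Cdc20 and Ube2c, which switch on the anaphase promoting complex and hand it ubiquitin, followed the same order. For Cdc20, the Pla2g3-/- and Pla2g3+/+ labels gave 1.75 and 3.63 in coculture and 2.67 and 2.47 alone, and Lpar1-/- and Lpar1+/+ fibroblasts gave 1.73 and 3.50. Ube2c read 0.87 in the coculture labelled Pla2g3-/- and 3.35 in the Pla2g3+/+ coculture, 2.49 in cells labelled Pla2g3-/- alone and 2.25 in Pla2g3+/+ cells alone, and 0.91 on Lpar1-/- against 3.27 on Lpar1+/+ fibroblasts. Ube2c was 5.56-fold lower under the Pla2g3-/- label than in the Pla2g3+/+ coculture, and 3.06-fold lower in that coculture than in cells labelled Pla2g3-/- alone.

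The kinetochore and centromere genes held some of the deepest falls on Lpar1-/- fibroblasts. The level of Cenpa was 0.81 under the Pla2g3-/- label and 2.44 under Pla2g3+/+ in coculture, 1.42 and 1.40 for those labels alone, and 0.21 on Lpar1-/- against 2.35 on Lpar1+/+ fibroblasts. Cenpa, the histone that marks the centromere, was 3.10-fold lower under the Pla2g3-/- label in coculture. For Cenpe, the Pla2g3-/- and Pla2g3+/+ labels gave 0.61 and 3.13 in coculture and 1.59 and 1.48 alone, and Lpar1-/- and Lpar1+/+ fibroblasts gave 0.39 and 2.99. Cenpe is the kinesin that moves chromosomes to the spindle equator, and it was 5.74-fold and 6.10-fold lower in the label and the fibroblast comparison. Ndc80 read -2.67 in the coculture labelled Pla2g3-/- and -0.48 in the Pla2g3+/+ coculture, -1.81 in cells labelled Pla2g3-/- alone and -2.01 in Pla2g3+/+ cells alone, and -2.65 on Lpar1-/- against -0.56 on Lpar1+/+ fibroblasts. The level of Nuf2 was -2.41 under the Pla2g3-/- label and 0.25 under Pla2g3+/+ in coculture, -1.14 and -1.32 for those labels alone, and -3.08 on Lpar1-/- against 0.28 on Lpar1+/+ fibroblasts. For Spc25, the Pla2g3-/- and Pla2g3+/+ labels gave 1.82 and 3.50 in coculture and 2.92 and 2.12 alone, and Lpar1-/- and Lpar1+/+ fibroblasts gave 0.15 and 3.45. These 3 are parts of the NDC80 complex, which grips the spindle fibre. Nuf2 was 10.3-fold lower on Lpar1-/- fibroblasts, and Spc25 9.84-fold. Spc25 differed most between the comparisons, with -3.30 on Lpar1-/- fibroblasts and -1.68 under the Pla2g3-/- label in coculture. It also had the largest difference between the cells alone, 0.80, higher under the Pla2g3-/- label. Cenpf read -6.66 in the coculture labelled Pla2g3-/- and -4.57 in the Pla2g3+/+ coculture, -5.46 in cells labelled Pla2g3-/- alone and -5.83 in Pla2g3+/+ cells alone, and -7.35 on Lpar1-/- against -4.83 on Lpar1+/+ fibroblasts. Cenpf, a large kinetochore protein, was dim, with an intensity under 50 on some arrays. With normexp it differed by -0.54 under the Pla2g3-/- label in coculture and by -0.75 on Lpar1-/- fibroblasts, within 2-fold in both.

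Among spindle motors and microtubule binders, 6 of 6 were at least 2-fold lower in both comparisons. The level of Kif11 was -2.02 under the Pla2g3-/- label and 0.11 under Pla2g3+/+ in coculture, -1.09 and -1.27 for those labels alone, and -2.84 on Lpar1-/- against 0.21 on Lpar1+/+ fibroblasts. Kif11 slides spindle fibres apart to separate the poles, and it fell 8.29-fold on Lpar1-/- fibroblasts and 4.37-fold under the Pla2g3-/- label in coculture. For Kif2c, the Pla2g3-/- and Pla2g3+/+ labels gave -3.63 and -1.54 in coculture and -2.71 and -2.97 alone, and Lpar1-/- and Lpar1+/+ fibroblasts gave -4.00 and -1.65. Kif4 read -2.99 in the coculture labelled Pla2g3-/- and -0.25 in the Pla2g3+/+ coculture, -1.57 in cells labelled Pla2g3-/- alone and -1.73 in Pla2g3+/+ cells alone, and -3.11 on Lpar1-/- against -0.16 on Lpar1+/+ fibroblasts. Kif2c takes spindle fibres apart at the centromere, and Kif4 is a motor on chromosome arms. Kif4 was 6.68-fold lower under the Pla2g3-/- label in coculture. The level of Tpx2 was -0.61 under the Pla2g3-/- label and 2.01 under Pla2g3+/+ in coculture, 1.19 and 1.03 for those labels alone, and -0.34 on Lpar1-/- against 1.91 on Lpar1+/+ fibroblasts. Tpx2 switches on Aurka and seeds spindle fibres, and it was lower in coculture than alone under the Pla2g3-/- label (-1.80). For Nusap1, the Pla2g3-/- and Pla2g3+/+ labels gave -0.04 and 2.33 in coculture and 1.39 and 1.14 alone, and Lpar1-/- and Lpar1+/+ fibroblasts gave -1.21 and 2.21. Nusap1 bundles spindle fibres and was 10.7-fold lower on Lpar1-/- than on Lpar1+/+ fibroblasts, among the deepest falls there. Hmmr read 0.12 in the coculture labelled Pla2g3-/- and 2.01 in the Pla2g3+/+ coculture, 0.97 in cells labelled Pla2g3-/- alone and 0.77 in Pla2g3+/+ cells alone, and 0.02 on Lpar1-/- against 1.95 on Lpar1+/+ fibroblasts. Hmmr, a spindle pole protein, had like falls in both comparisons (-1.89 and -1.92).

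The central spindle and cytokinesis genes departed most from the rest. Their median was -1.80 under the Pla2g3-/- label in coculture and -1.51 on Lpar1-/- fibroblasts, and all 3 exceptions to the order of the arrays stood here. The level of Anln was 0.76 under the Pla2g3-/- label and 2.99 under Pla2g3+/+ in coculture, 1.04 and 0.84 for those labels alone, and 1.41 on Lpar1-/- against 2.82 on Lpar1+/+ fibroblasts. Anln (anillin) organises the contractile ring, and on Lpar1-/- fibroblasts it stayed above both cultures alone. For Kif20a, the Pla2g3-/- and Pla2g3+/+ labels gave 0.15 and 1.89 in coculture and 0.47 and 0.21 alone, and Lpar1-/- and Lpar1+/+ fibroblasts gave 0.85 and 1.66. Kif20a carries the passenger complex to the central spindle, and it too stayed above both cultures alone on Lpar1-/- fibroblasts, within 2-fold of Lpar1+/+ fibroblasts (-0.82). Kif23 read -0.05 in the coculture labelled Pla2g3-/- and 0.93 in the Pla2g3+/+ coculture, 0.74 in cells labelled Pla2g3-/- alone and 0.51 in Pla2g3+/+ cells alone, and 0.36 on Lpar1-/- against 0.71 on Lpar1+/+ fibroblasts. The level of Racgap1 was 0.32 under the Pla2g3-/- label and 2.44 under Pla2g3+/+ in coculture, 1.09 and 0.84 for those labels alone, and 0.42 on Lpar1-/- against 2.52 on Lpar1+/+ fibroblasts. Kif23 and Racgap1 form centralspindlin, which recruits Ect2. They did not move alike: Racgap1 was 4.35-fold lower under the Pla2g3-/- label in coculture, and Kif23 was the only member within 2-fold there (-0.99) and was within 2-fold on Lpar1-/- fibroblasts (-0.35). For Ect2, the Pla2g3-/- and Pla2g3+/+ labels gave 0.71 and 1.95 in coculture and 0.84 and 0.80 alone, and Lpar1-/- and Lpar1+/+ fibroblasts gave 0.36 and 1.97. Prc1 read 1.42 in the coculture labelled Pla2g3-/- and 3.28 in the Pla2g3+/+ coculture, 2.43 in cells labelled Pla2g3-/- alone and 2.27 in Pla2g3+/+ cells alone, and 1.22 on Lpar1-/- against 3.38 on Lpar1+/+ fibroblasts. Ect2 switches on RhoA at the cut, and Prc1 bundles the central spindle. Ect2 hardly differed between coculture and cells alone under the Pla2g3-/- label (-0.13), while it was 2.22-fold higher in coculture in Pla2g3+/+ cells.

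Top2a and Mki67 stand for the mitotic chromosome. The level of Top2a was -0.88 under the Pla2g3-/- label and 1.88 under Pla2g3+/+ in coculture, 0.65 and 0.55 for those labels alone, and -1.58 on Lpar1-/- against 1.76 on Lpar1+/+ fibroblasts. Top2a (chromosome 11, 98855522 to 98855581, mm9), which untangles sister chromosomes, had one of the deepest falls under the Pla2g3-/- label in coculture, 6.79-fold. For Mki67, the Pla2g3-/- and Pla2g3+/+ labels gave 2.74 and 4.75 in coculture and 3.64 and 3.40 alone, and Lpar1-/- and Lpar1+/+ fibroblasts gave 1.44 and 4.78. Mki67 (chromosome 7, 142881591 to 142881650, mm9), the gene of the proliferation marker Ki-67, which coats mitotic chromosomes, was 10.1-fold lower on Lpar1-/- fibroblasts and 4.04-fold lower under the Pla2g3-/- label in coculture.

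**Figure D4:**
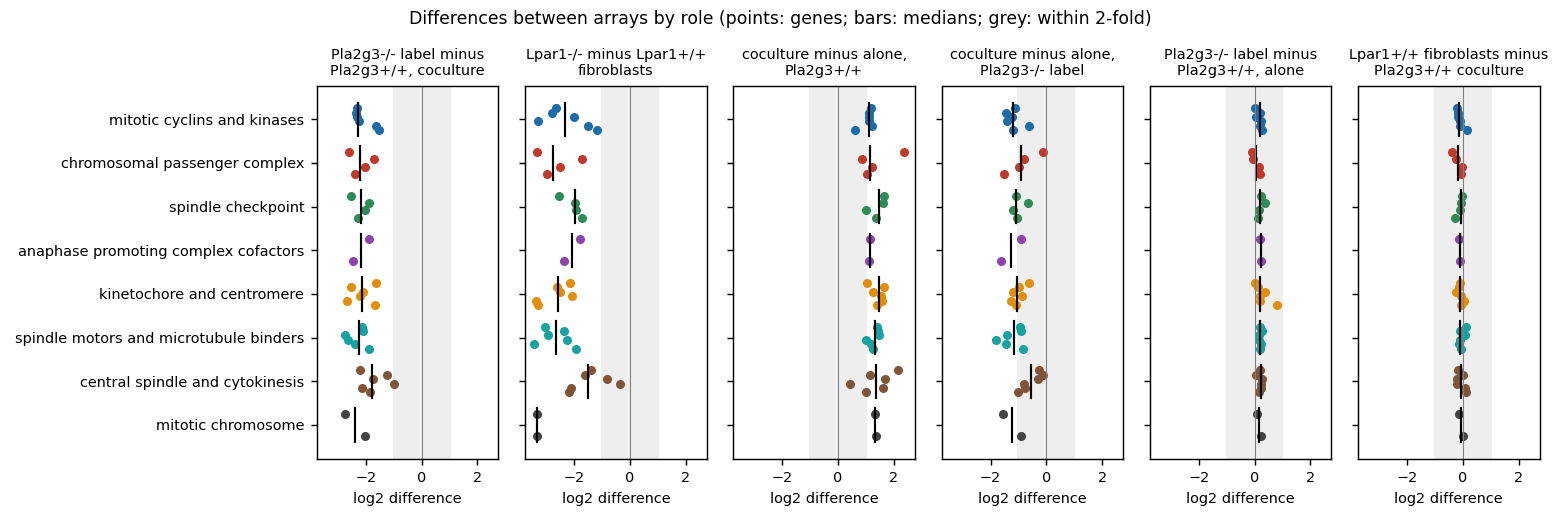
Log2 differences (horizontal axis) of the members by role (rows) for 6 pairs of arrays (panels), with 1 point per gene, a bar at the median of each role and the 2-fold zone in grey. Central spindle and cytokinesis genes spread furthest toward the grey zone in the first 2 panels (medians -1.80 and -1.51), and all points of the last 2 panels lie inside it.

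The falls in the 2 coculture comparisons, which share no array, were alike in direction and unlike in detail. Across the 36 members Pearson's r between them was 0.67 and Spearman's rho 0.63, a description over genes that share the same 4 arrays and are not independent replicates. The fall was larger on Lpar1-/- fibroblasts in 23 members, by over 1 in 4 of them: Spc25, Mki67, Nusap1 and Ccnb2. It was larger under the Pla2g3-/- label in 13 members, by over 1 in 0 of them, and most for Kif20a (0.92), Anln (0.82) and Kif23 (0.63). Gaps of that size exceed the distance of 0.54 that held 95% of genes between the wild-type cocultures, but a difference of differences carries the error of 4 arrays, and these gaps were not tested.

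**Figure D5:**
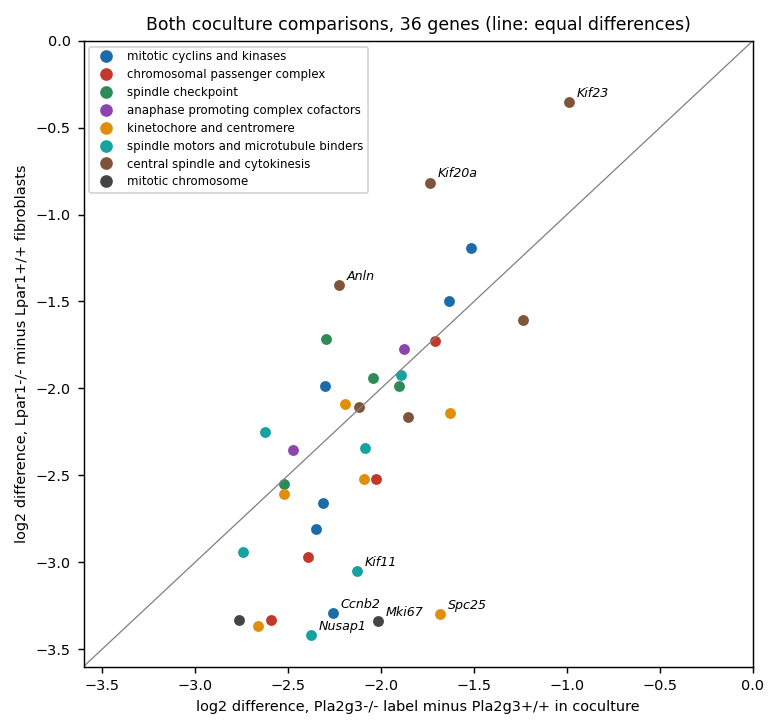
Log2 difference of each member on Lpar1-/- minus Lpar1+/+ fibroblasts (vertical axis) against that under the Pla2g3-/- label minus Pla2g3+/+ in coculture (horizontal axis), coloured by role, with a line where both are equal. Spc25, Mki67, Nusap1, Ccnb2 and Kif11 lie below the line, and Anln, Kif20a and Kif23 above it.

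Coculture went with higher levels of the members in Pla2g3+/+ cells and lower levels under the Pla2g3-/- label. All 36 were above 0 for Pla2g3+/+ coculture minus cells alone and below 0 for the same difference under the Pla2g3-/- label. That pair of signs was found in 17.6% of 21816 genes, and with normexp it was lost by Aurkb (0.05 under the Pla2g3-/- label). With the mean of each gene's probes it was lost by Kif23 (-0.25 in Pla2g3+/+ cells) and Nuf2 (0.54 under the Pla2g3-/- label). In 15 members both differences passed 2-fold in these directions, as in 0.532% of genes. With normexp Ttk, Cenpf and Prc1 left that count, at 0.85, 0.43 and 0.98 in Pla2g3+/+ cells. Bub1 left it too, at -0.94 under the Pla2g3-/- label, while Mad2l1 and Tpx2 entered it. Without normexp, the members within 2-fold in Pla2g3+/+ cells were Aurka, Incenp (0.86), Mad2l1 (0.99), Tpx2 (0.99) and Kif23 (0.42). Among the larger rises there were those of Anln (2.15, and 2.10 with normexp) and Kif20a (1.68, and 1.63). The slide cancels in the difference of these differences, which was at least 2-fold below 0 in 36 of 36 members and above it in 0 (background 8.93% below and 9.79% above of 19723 genes), with a median of -2.36 against -0.03 over all genes. With normexp Aurkb (-0.91) and Cenpf (-0.72) fell short of 2-fold in it. Over all genes the balance of these coculture calls depended on the scaling: 63.4% of the calls in Pla2g3+/+ cells were upward, and 50.01% after quantile normalization, and under the Pla2g3-/- label 61.0% and 50.9%. The direction of the members' medians was the same in each.

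Both wild-type cocultures stood alike against the cultures alone. Lpar1+/+ fibroblasts gave levels above both cultures alone for 35 members (51% of genes), the exception being Kif23, and the Pla2g3+/+ coculture for 36 (52.6%). The coculture labelled Pla2g3-/- lay below both cultures alone for 36 members (38.5% of genes) and the Lpar1-/- coculture for 34 (39.4%). Cells alone differed little by label: 34 members read higher and 2 lower under Pla2g3-/-, from -0.10 for Aurkb to 0.80 for Spc25, with the next largest at 0.38 for Bub1b.

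Markers of other cells moved too, and their part in the results was not tested. The summed level of the 20 fibroblast markers, in multiples of the 75th percentile, was 18.4 in the coculture labelled Pla2g3-/- and 39.6 in the Pla2g3+/+ coculture, with 11 of 18 markers at least 2-fold lower (median -1.28). On Lpar1-/- fibroblasts it was 40.0, and 40.0 on Lpar1+/+ fibroblasts, with 6 of 19 higher and 2 lower (median -0.25). Single markers in that pair differed by -1.42 to at least 3.99, so equal sums do not mean equal markers. The members' summed level was 46.4 on Lpar1-/- against 227 on Lpar1+/+ fibroblasts. It was 58.9 in the coculture labelled Pla2g3-/- against 239 in the Pla2g3+/+ coculture, and 120 against 105 in the cells alone, where fibroblast markers summed to 0.856 and 0.991. Mast cell markers, 15 in all, summed to 822 in the coculture labelled Pla2g3-/- and 817 in the Pla2g3+/+ coculture, and to 704 on Lpar1-/- against 805 on Lpar1+/+ fibroblasts. In each of these pairs 5 of the 15 were at least 2-fold lower, among them the maturation genes Tpsab1, Mcpt4 and Hdc. Granulocyte markers, 14 in all, summed to 1.98 under the Pla2g3-/- label in coculture and 4.58 in the Pla2g3+/+ coculture, to 14.1 on Lpar1-/- and 5.07 on Lpar1+/+ fibroblasts, and to 2.81 in cells labelled Pla2g3-/- alone against 44.9 in Pla2g3+/+ cells alone. Macrophage markers, 11 in all, summed to 53.0 under the Pla2g3-/- label and 15.3 in the Pla2g3+/+ coculture, to 37.2 on Lpar1-/- and 14.8 on Lpar1+/+ fibroblasts, and to 19.6 and 21.7 in cells alone labelled Pla2g3-/- and Pla2g3+/+. Cx3cr1, which made up most of the sum under the Pla2g3-/- label and on Lpar1-/- fibroblasts, had levels of 5.64 under the Pla2g3-/- label and 2.34 in the Pla2g3+/+ coculture, and 5.14 on Lpar1-/- against 2.29 on Lpar1+/+ fibroblasts. It was the 1 macrophage marker at least 2-fold higher in each pair, while 4 of 10 were lower under the Pla2g3-/- label in coculture (median -0.76). Among those lower were Mrc1 (-5.71 or lower, a bound) and Mpeg1 (-3.58). On Lpar1-/- fibroblasts 4 of 11 were lower (median -0.26).

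For 14 members the array held several probes. Of the 19 probes not chosen, 17 were well above background on all arrays. Of these 17, all had the sign of the chosen probe for the Pla2g3-/- label in coculture, at a median distance of 0.26, and 16 for Lpar1-/- fibroblasts, at 0.13. For coculture against cells alone, 14 had that sign in Pla2g3+/+ cells, at 0.25, and 16 under the Pla2g3-/- label, at 0.20. A few probes stood apart. The Cdk1 probe at 68799513 to 68799572 stayed flat, at -0.03 and 0.19 in the label and the fibroblast comparison. The remaining Cdk1 probe gave -2.65 and -2.97. The Ect2 probe at 27020829 to 27020888 gave -0.14 and -0.80, and the Kif23 probe at 61775096 to 61775155 gave -0.18 and -0.38. The Nuf2 probe at 171440451 to 171440510 gave -0.35 and -0.23, and it was at least 4.62 higher on the log2 scale in coculture than alone in Pla2g3+/+ cells and 4.12 higher under the Pla2g3-/- label. For these genes the probes disagree, and the values above hold for the brightest probe. With the mean of its probes, Ect2 was within 2-fold under the Pla2g3-/- label in coculture (-0.69). Which exon each probe lies in was not looked up, since no mm9 annotation was used here.

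The same order ran through other genes of mitosis. Of 72 further mitosis genes, 61 were at least 2-fold lower and 0 higher under the Pla2g3-/- label in coculture (median -2.05), and 62 lower and 0 higher on Lpar1-/- fibroblasts (median -2.24). In Pla2g3+/+ cells 47 were higher and 0 lower in coculture than alone (median 1.12), and under the Pla2g3-/- label 35 were lower and 1 higher (median -0.98), the higher one being Depdc1b (1.38). Pbk, a mitotic kinase, had the largest falls, -3.31 and -4.10, in the label and the fibroblast comparison. Spc24, which pairs with Spc25 in the NDC80 complex, followed with -2.98 and -3.84, and Ska1, which helps that complex hold the spindle fibre, with -2.86 and -3.71. Foxm1, the transcription factor that drives many of these genes, read -1.54 in the coculture labelled Pla2g3-/- against 0.80 in the Pla2g3+/+ coculture, -0.36 against -0.57 in the cells alone of the same labels, and -1.58 on Lpar1-/- against 0.63 on Lpar1+/+ fibroblasts. Mybl2 (B-Myb) differed by -2.36 under the Pla2g3-/- label in coculture and by -2.18 on Lpar1-/- fibroblasts. Pttg1 (securin) parted from them, with -1.20 under the Pla2g3-/- label and 0.62 on Lpar1-/- fibroblasts.

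Genes of DNA replication moved in the same directions. Of 37, 28 were at least 2-fold lower under the Pla2g3-/- label in coculture (median -1.62), 27 on Lpar1-/- fibroblasts (median -1.67), and 0 were higher in either. The lowest were Orc1 (-3.13 and -3.09), Tk1 (-2.90 and -3.37) and Rrm2 (-2.66 and -3.31), which serve replication origins and nucleotide supply. Orc1 was dim, at -6.41 in the coculture labelled Pla2g3-/- and -5.98 on Lpar1-/- fibroblasts. Its size and rank may thus depend on the background correction, as the values of Aurkb did. In Pla2g3+/+ cells 23 were higher in coculture than alone (median 1.21), led by Cdc6 (2.06), Tk1 (2.00) and Cdt1 (1.89). Under the Pla2g3-/- label 9 were lower in coculture than alone (median -0.53).

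Inhibitors of division did not move as 1 group. Their list also held Lin9, Lin37, Lin52, Lin54 and Rbbp4 of the MuvB core, which serves dividing and resting cells. Of 19, 2 were at least 2-fold higher and 8 lower under the Pla2g3-/- label in coculture (background 9.11% higher and 10.4% lower). On Lpar1-/- fibroblasts 3 were higher and 7 lower (background 11.3% higher and 8.85% lower). Cdkn1b, which encodes the kinase inhibitor p27, read 3.92 in the coculture labelled Pla2g3-/- against 1.62 in the Pla2g3+/+ coculture, 2.84 against 2.80 in the cells alone of the same labels, and 4.02 on Lpar1-/- against 1.72 on Lpar1+/+ fibroblasts. Its order of arrays was thus the reverse of that of the mitotic genes, with a difference of 2.30 in both comparisons. Btg2, an antiproliferative gene, was higher as well, by 2.10 and 1.67. Rbl2, the p130 of the DREAM complex, was higher by 0.90, within 2-fold, and by 1.26. Of other parts of that complex, E2f4 differed by -0.18 and -0.33. Lin9 (-1.61 and -1.44) and Lin54 (-1.13 and -1.14) were lower. Lin37 (0.34 and 0.44), Lin52 (0.24 and 0.40) and Rbbp4 (-0.13 and -0.28) stayed within 2-fold. Rbl1 was lower too (-1.61 and -1.54). Whether the complex took part was not tested. Cdkn1a (p21) was lower than its counterpart array by 1.67 in both comparisons (-1.67). It read 2.24 in the coculture labelled Pla2g3-/-, 3.90 in the Pla2g3+/+ coculture, 2.35 on Lpar1-/- and 4.02 on Lpar1+/+ fibroblasts. Further kinase inhibitor genes were lower as well: Cdkn2a (-1.35 and -1.29), Cdkn2c (-1.39 and -1.45) and Cdkn2d (-1.43 and -1.45). Cdkn2b differed by -2.05 and by -0.88, the latter within 2-fold, and Cdkn1c by 0.08 and -0.29.

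Members with no CHR match did not have smaller falls than those with one. The 4 without a match in the window, Nuf2, Nusap1, Bub1 and Mad2l1, had medians of -2.45 under the Pla2g3-/- label in coculture and -2.96 on Lpar1-/- fibroblasts. The 27 with one had -2.09 and -2.17. With a CHR in 62.5% of 56 windows of the other mitosis genes and 22.6% of 31 windows of replication genes, the element was commoner in mitosis genes than among all genes (27.8%), and these shares are descriptions with no test.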

How the data were processed

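The authors read each spot's intensity with the scanner software (Feature Extraction 12.1.1.1), which subtracted background and, per the file headers, put a surrogate in place of the dimmest values. The signal of the deposited value table is linear and equals, on every array, the processed intensity divided by 1 constant, so scale and direction are known and no centring was found; its column medians were 0.0498 and 0.0485 (cocultures labelled Pla2g3-/- and Pla2g3+/+), 0.0380 and 0.0401 (the same labels alone), and 0.0534 and 0.0471 (Lpar1-/- and Lpar1+/+ fibroblasts). Levels are log2 intensity less the log2 of the array's 75th percentile over noncontrol spots. Outlier spots, 84 to 115 on an array, were left out and each probe's spots averaged, leaving 39416 probes. Accessions named 33002 spots through RefSeq GRCm38.p6, symbols 3072, synonyms 16, and 6930 kept the file's name. The brightest probe stood for a gene. A gene was compared where at least 1 array was well above background, and where 1 was not, the difference is a bound, taken from that array's lowest well-measured signal or the dim probe's own, whichever is higher. Calls are at 2-fold. Each group had 1 array, so there is no test and no p-value, and the number of arrays limits every value.

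The members, lists and settings were chosen with earlier results of these data known. All 36 members were named. Of other lists, the 3 genes furthest up and the 3 furthest down beyond 2-fold could be named, with Foxm1, Mybl2, Cdkn1a and Pla2g3. Cdkn1b, Btg2, Rbl2, Rbl1, E2f4, the MuvB core genes, Depdc1b, Pttg1 and the mast cell markers were named after their values were seen. So were Cdkn1c, Cdkn2a, Cdkn2b, Cdkn2c and Cdkn2d. The submitters' probe coordinates are mm9. The alternatives were normexp background correction (limma 3.58.1 in R 4.3.3), quantile normalization, another scale, mean of probes, other filters, outlier spots kept, the value table, a 1.5-fold threshold and the other wild-type coculture. Other steps ran in Python 3.11.15 with pandas 2.3.3 and were tested on simulated data.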

Additional observations from a re-analysis of the deposited data

Results flagged for a closer look

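For 15 members the coculture difference ran in opposite directions under the 2 mast cell labels, past 2-fold in each. With normexp Ttk and Cenpf (0.85 and 0.43 in Pla2g3+/+ cells) did not pass. Nor did Bub1 (-0.94 under the Pla2g3-/- label) and Prc1 (0.98 in Pla2g3+/+ cells). With the mean of each gene's probes, Cdk1 (-0.31) and Nuf2 (0.54) did not pass under the Pla2g3-/- label. Ube2c (0.996) then fell just short in Pla2g3+/+ cells. The median of the 36 members also differed in sign between the labels, though under the Pla2g3-/- label it lay within 2-fold. That this difference between labels is larger than the spread between cultures was not tested. Each value here is the coculture minus alone difference under the Pla2g3-/- label minus that in Pla2g3+/+ cells, on the log2 scale. The median of the 36 members was -2.36, beside medians of -0.99 under the Pla2g3-/- label and 1.23 in Pla2g3+/+ cells. Among cyclins and kinases it was -2.32 for Cdk1, -2.53 for Ccna2, -2.36 for Ccnb1 and -2.51 for Ccnb2. Cdca8 of the passenger complex gave -2.57, the checkpoint genes Bub1 and Ttk -2.75 and -2.42, and Ube2c -2.71. Among kinetochore genes it was -2.46 for Cenpf, -2.85 for Nuf2 and -2.48 for Spc25. The spindle genes Kif4 and Nusap1 gave -2.89 and -2.62. Prc1 gave -2.01, where both differences only just passed 2-fold, and Top2a -2.86.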

How the results depend on the processing

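No paired analysis was possible because each group has 1 array. The direction of the members' median was the same under every setting tried in the main comparisons. The median ran from -2.17 to -1.95 for the Pla2g3-/- label in coculture, from -2.40 to -2.09 for Lpar1-/- fibroblasts, from 1.14 to 1.31 for coculture in Pla2g3+/+ cells, from -1.06 to -0.89 for coculture under the Pla2g3-/- label and from 0.17 to 0.20 for that label in cells alone. Members called lower numbered 32 to 36, 31 to 35 and 14 to 32 in the label, fibroblast and Pla2g3-/- label coculture comparisons. Over all genes, from normexp to 1.5-fold, these were 1210 of 22490 to 4744 of 22491 and 1452 of 24518 to 4533 of 24531. For the third they were 914 of 22327 to 3478 of 22337. Members called higher in Pla2g3+/+ coculture numbered 25 to 35, and all genes 1408 of 22609 to 5690 of 22606. At 1.5-fold in place of 2-fold, 32 members were lower in coculture under the Pla2g3-/- label, against 18 (all genes 3478 against 1627). In cells labelled Pla2g3-/- alone 1 was higher, against 0 (all genes 431 against 90). The looser threshold itself admits them. With the mean of its probes, Nuf2 turned to 0.54 in coculture against cells alone under the Pla2g3-/- label, through the probe that rose in both cocultures. Of 212 values of counts and medians under other settings, 210 stayed close to the main value, with counts within 1.5 times of it. Part of this was fixed beforehand, since the value table is the processed intensity over 1 constant and some counts were 0 throughout. Of 2355 values of single members, 66 moved by at least the standard deviation between the wild-type cocultures (0.25). A further 1, past 2-fold in the main setting, changed sign. Leaving out the dim members Aurkb, Ttk and Cenpf, a setting chosen after the data were seen, kept 33 members. Normexp moved the median of all genes by 0.17 in the label comparison in coculture, and quantile normalization by -0.13 for coculture in Pla2g3+/+ cells. Calls between the wild-type cocultures, 82.6% upward over all genes, were 45.6% upward after quantile normalization. With 1 array of pooled RNA per group, differences of a size seen between the wild-type cocultures (95% within 0.54) cannot be told from array error.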
